A study of Mus musculus with 8 samples.

Results

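Transcripts of 10 glycolysis enzymes were followed in the dental pulp (DP) of mice at postnatal day 7 (P7). The enzymes were chosen by name, as Hk1, Hk2, Gpi1, Pfkl, Pfkp, Aldoa, Pgk1, Eno1, Pkm and Ldha, and all 10 were among the 12148 genes of the deposited expression table. RNA-Seq was performed on 8 libraries of pulp from first molars (M1s), with the left and right molar combined. The 4 control libraries came from Osterix-Cre mice, which carry Cre recombinase fused to GFP under the Osterix promoter and serve as the genetic controls. The 4 mutant libraries came from Osterix-Cre:Tgfbr2f/f mice, called Tgfbr2cko, in which the same Cre deletes the floxed gene of the type II TGF-beta receptor. All mice were on the C57BL/6J background. Because the Osterix promoter is active in the mesenchyme that gives rise to odontoblasts and osteoblasts, the deletion covers only some of the cells in the pulp, and the controls share the Cre transgene. Each library goes by its label number, with 49 to 52 from Osterix-Cre mice and 53 to 56 from Tgfbr2cko mice.

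Glycolysis splits glucose into pyruvate in the cytosol and yields ATP and NADH without oxygen. Hexokinases trap glucose, phosphofructokinase commits it to breakdown, and pyruvate kinase makes the last ATP, while lactate dehydrogenase turns pyruvate into lactate and restores NAD+. Many of these genes are classical targets of the hypoxia-inducible factors, and osteoblasts are known to rely on glycolysis.

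Each deposited value is a log2 CPM, the log2 of a gene's reads scaled to the library's total on these genes (counts per 1000000 reads, CPM), after 0.5 was added to the read count. The libraries held between 8682872 and 13539670 such reads, and 1 read was worth 0.0739 to 0.115 CPM. The members were well covered, from 94 reads for Hk2 in Osterix-Cre 52 to 16952 reads for Ldha in Tgfbr2cko 54. Tgfbr2 itself was listed at 7.16, 7.62, 7.64 and 7.52 log2 CPM in the controls and at 7.02, 7.00, 7.16 and 7.61 in the mutants, so the genotypes overlapped over the whole gene (log2 fold change -0.29, SE 0.17, limma p = 0.119, exact permutation p = 0.143). Without Tgfbr2cko 56 its log2 fold change was -0.42, with a limma p of 0.0136 and an adjusted p of 0.295. Odontoblast and mesenchyme markers were present in every library, with Dspp between 11.99 and 14.02 and Vim between 10.42 and 11.37 log2 CPM. The enamel matrix transcripts Amelx and Ambn, which are made by ameloblasts, took 18.5% of the reads of Tgfbr2cko 56. They took 0.326% to 2.14% in the controls and 0.347% to 2.74% in the other 3 mutants. Values without Tgfbr2cko 56 are therefore given for the members and for the other genes whose result turns on that library.

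Promoter sequence is shown for Ldha and Hk2, the members that passed the threshold of 1.5-fold used here, for the lactate exporter Slc16a3, and for Gpi1, a member with no hypoxia core in its window. Each run is the 250 bases before a RefSeq transcript start on GRCm38.p6, read 5′ to 3′ on the gene's strand. Capitals mark ACGTG, the core bound by hypoxia-inducible factors, on either strand (CACGT when read on the other strand), and the full E-box CACGTG, which contains it.
Ldha, chr7:46845554-46845803, plus strand: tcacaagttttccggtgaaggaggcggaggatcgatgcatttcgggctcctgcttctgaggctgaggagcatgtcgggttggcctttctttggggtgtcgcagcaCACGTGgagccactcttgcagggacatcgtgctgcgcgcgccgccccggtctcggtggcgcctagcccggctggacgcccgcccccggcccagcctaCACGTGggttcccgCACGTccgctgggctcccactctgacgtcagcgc
Slc16a3, chr11:120948817-120949066, plus strand: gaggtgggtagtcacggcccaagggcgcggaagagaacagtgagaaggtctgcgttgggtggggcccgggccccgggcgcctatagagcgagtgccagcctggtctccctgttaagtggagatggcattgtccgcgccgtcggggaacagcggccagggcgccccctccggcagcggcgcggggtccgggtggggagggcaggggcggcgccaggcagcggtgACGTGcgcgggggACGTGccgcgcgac
Hk2, chr6:82774455-82774704, minus strand: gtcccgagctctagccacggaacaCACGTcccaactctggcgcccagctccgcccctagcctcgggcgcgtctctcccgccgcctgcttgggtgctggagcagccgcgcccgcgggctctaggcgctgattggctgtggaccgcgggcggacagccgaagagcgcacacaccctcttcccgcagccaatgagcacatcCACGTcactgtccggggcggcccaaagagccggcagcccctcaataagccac
Gpi1, chr7:34230337-34230586, minus strand: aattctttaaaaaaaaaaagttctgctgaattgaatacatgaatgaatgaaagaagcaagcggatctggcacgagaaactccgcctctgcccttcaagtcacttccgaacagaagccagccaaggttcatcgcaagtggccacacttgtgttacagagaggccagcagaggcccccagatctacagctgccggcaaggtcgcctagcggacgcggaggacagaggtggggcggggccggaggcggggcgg

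The run of Ldha, from one of its 2 annotated starts, holds 2 E-boxes and a further core on the other strand, all within 145 bases of the start. Of the windows of its 2 starts, the one with the most ACGTG or GCGTG cores was printed. The window of the other start holds neither ACGTG nor an E-box. In Slc16a3 both cores lie within 27 bases of the start. Hk2 has cores 226 and 52 bases before its start, and Gpi1 has none. Over windows from 250 bases before to 50 after the start, ACGTG or GCGTG on either strand occurred in 9 of the 10 members and in 68.1% of the 9556 genes of the table with a RefSeq window. ACGTG itself occurred in 6 of 10 members (Hk1, Hk2, Aldoa, Pgk1, Pkm and Ldha) and in 29.3% of genes. The E-box CACGTG was found in 1 member, Ldha, and in 11.8% of genes. The GC box GGGCGG was found in 9 members and 70.2% of genes. GTCTAGAC, the palindrome bound by SMAD proteins, was found in 0 members and 0.283% of genes. A gene counts as holding a motif if any of its annotated windows does, and these matches describe the letters only.

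The members spanned a wide range of levels. Per kilobase of the principal transcript, Eno1 was the most abundant in the controls at 651 ± 95.1 CPM (SD, n = 4), followed by Aldoa at 533 ± 25.1, Ldha at 363 ± 11.5 and Pkm at 283 ± 22.1. Gpi1 at 60.6 ± 4.69, Pgk1 at 49.2 ± 4.91 and Pfkl at 47.9 ± 7.30 formed a lower tier. Hk1 stood at 26.2 ± 4.18, Pfkp at 8.13 ± 1.26 and Hk2 at 2.70 ± 0.826. The control libraries of Eno1 and Aldoa overlapped on this scale, and those of Pfkl overlapped with those of both Gpi1 and Pgk1, so these orders are not set, while Gpi1 lay above Pgk1 in every control. With the length of all exons in place of the principal transcript, Aldoa (277 ± 13.0 CPM per kilobase) came before Eno1 (245 ± 35.9), and the 2 scarcest members were Hk2 (2.49 ± 0.763) and Pfkp (2.52 ± 0.390).

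The question for each enzyme was whether its transcript level in the pulp depended on Tgfbr2. Of the 10 members, 8 had a higher mean in Tgfbr2cko, as did 5933 of the 12148 genes. Hk1 and Eno1 had a slightly lower mean, and their difference changed sign on totals without Amelx and Ambn. For the 10 together, the median log2 fold change was 0.28, beside a median of -0.01 over all genes tested. Ldha and Hk2 passed a threshold of 1.5-fold at an unadjusted p under 0.05, both with higher values in the mutants. In bulk tissue, more transcript per cell and more cells of a type that expresses the gene cannot be told apart. With limma-trend on all 8 libraries, 2 of 10 members had an unadjusted p under 0.05 where 8.38% of all genes did, and both were higher in the mutants where 3.3% of all genes were. Both also passed 1.5-fold, as did 5.77% of all genes, and 0 members reached an adjusted p under 0.05, which 0.947% of all genes did. The titles carry a further number (4, 4, 2 and 5 in the controls, 3, 2, 2 and 3 in the mutants) whose meaning is not given, and the labels do not tie libraries to animals or litters, so the p-values measure only the spread between these samples.

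**Figure D1:**
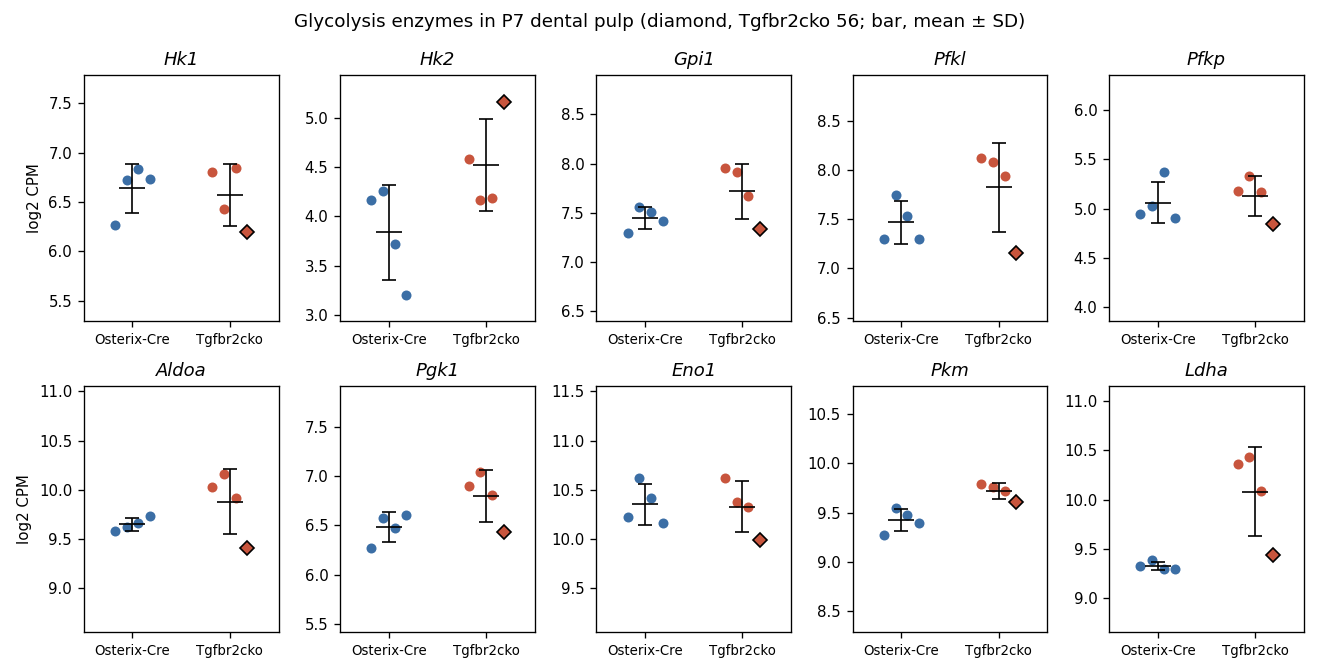
Deposited log2 CPM of each glycolysis enzyme (vertical axis, a window of equal height in every panel) in the 4 Osterix-Cre libraries (blue) and the 4 Tgfbr2cko libraries (red), with Tgfbr2cko 56 as a diamond and bars for mean and SD. In Ldha and Pkm all 4 mutants lie above all 4 controls, while Tgfbr2cko 56 is the lowest mutant in 9 panels and the highest in Hk2.

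Hexokinases carry out the first step, the phosphorylation of glucose. Hk1, the widely expressed form (ENSMUSG00000037012.18, chr10:62268855-62379908, minus strand), was at 6.27, 6.73, 6.83 and 6.73 log2 CPM in the controls and at 6.81, 6.42, 6.85 and 6.19 in the mutants. The genotypes overlapped fully, and the log2 fold change was -0.07 (SE 0.18, limma p = 0.701, adjusted p = 0.998, exact permutation p = 0.857). Hk2, the inducible form that is known to respond to growth factors and hypoxia (ENSMUSG00000000628.10, chr6:82725025-82774454, minus strand), was at 4.17, 4.26, 3.72 and 3.21 in the controls and at 4.58, 4.17, 4.19 and 5.16 in the mutants. The highest Hk2 value was that of Tgfbr2cko 56, and the lowest were those of Osterix-Cre 51 and 52. The log2 fold change of Hk2 was 0.69, or 1.61-fold, with a 95% interval from 0.09 to 1.28 (limma p = 0.0275, adjusted p = 0.449), and the exact permutation test gave p = 0.143. Its limma p was 0.060 without Osterix-Cre 51, 0.0966 without Osterix-Cre 52 and 0.0874 without Tgfbr2cko 56.

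Glucose-6-phosphate isomerase and phosphofructokinase follow. Gpi1, the isomerase (chr7:34201330-34230336, minus strand), was at 7.30, 7.56, 7.51 and 7.41 log2 CPM in the controls and at 7.95, 7.92, 7.67 and 7.34 in the mutants. Only Tgfbr2cko 56 lay inside the control range, and the log2 fold change of 0.27 had an interval from -0.07 to 0.62 (limma p = 0.109, adjusted p = 0.772, exact permutation p = 0.143). Pfkl, the liver-type phosphofructokinase subunit (chr10:77986947-78010083, minus strand), was at 7.30, 7.74, 7.53 and 7.30 in the controls and at 8.12, 8.08, 7.93 and 7.16 in the mutants. Here too 3 mutants lay above every control while Tgfbr2cko 56 lay below every control, with a log2 fold change of 0.35 over all 8 libraries (SE 0.21, limma p = 0.113, adjusted p = 0.778, exact permutation p = 0.229). Pfkp, the platelet-type subunit (chr13:6579768-6648777, minus strand), ran from 4.91 to 5.37 in the controls and from 4.85 to 5.33 in the mutants. Its genotypes overlapped, with a log2 fold change of 0.07 and an interval from -0.30 to 0.43 (limma p = 0.692, exact permutation p = 0.60).

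Aldoa, the aldolase that cleaves fructose bisphosphate (chr7:126795234-126800751, minus strand), was at 9.58, 9.62, 9.66 and 9.74 log2 CPM in the controls. In the mutants it was at 10.03, 10.16, 9.92 and 9.41. The 3 libraries 53 to 55 lay above the controls and 56 lay below them, and the log2 fold change of 0.23 did not pass the test (SE 0.19, limma p = 0.250, adjusted p = 0.912, exact permutation p = 0.20). Pgk1, which makes the first ATP of the payoff phase (chrX:106187100-106203699, plus strand), was at 6.27, 6.58, 6.47 and 6.60 in the controls and at 6.90, 7.04, 6.81 and 6.43 in the mutants. The pattern was that of Aldoa, except that Tgfbr2cko 56 stayed within the control range (log2 fold change 0.31, SE 0.16, limma p = 0.0693, adjusted p = 0.661, exact permutation p = 0.114). Eno1, the enolase (chr4:150236721-150248879, plus strand), was at 10.22, 10.62, 10.41 and 10.16 in the controls and at 10.62, 10.38, 10.33 and 9.99 in the mutants. Eno1 did not follow Gpi1, Pfkl, Aldoa and Pgk1, since Tgfbr2cko 53 was level with the highest control and 54 and 55 lay inside the control range. Like Hk1 and Pfkp it showed no clear shift, with a log2 fold change of -0.02 and an interval from -0.45 to 0.41 (limma p = 0.905, exact permutation p = 0.857).

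Pyruvate kinase and lactate dehydrogenase close the pathway, and they were the 2 members in which every mutant exceeded every control. Among all genes tested, 5.27% had genotypes that did not overlap, and in 2.13% all mutants lay above all controls. Pkm, which yields pyruvate and ATP (chr9:59656368-59679375, plus strand), was at 9.28, 9.54, 9.48 and 9.39 log2 CPM in the controls and at 9.79, 9.76, 9.72 and 9.61 in the mutants. The step between the genotypes was small, 0.30 on the log2 scale or 1.23-fold, with an interval from -0.03 to 0.63 (limma p = 0.0740, adjusted p = 0.674, exact permutation p = 0.0286).

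Ldha, the subunit that favours conversion of pyruvate to lactate (ENSMUSG00000063229.15, chr7:46841475-46855627, plus strand), had the smallest limma p of the 10 members. The log2 fold change of Hk2 exceeded that of Ldha without Osterix-Cre 49 or 50, without Tgfbr2cko 53, 54 or 55, and with title numbers averaged. Its control values lay close together at 9.32, 9.39, 9.29 and 9.30 log2 CPM, and the mutants were at 10.36, 10.43, 10.09 and 9.44. Tgfbr2cko 56 lay just above the highest control, and the other 3 mutants lay well above. The log2 fold change was 0.75, or 1.69-fold, with a 95% interval from 0.29 to 1.21 (limma p = 0.00365, adjusted p = 0.153, exact permutation p = 0.0286). The exact p is the smallest that the 70 arrangements of the libraries allow. Ldha had an unadjusted p under 0.05 in all 18 alternative fits, with log2 fold changes from 0.64 to 0.97 and adjusted p from 0.00614 to 0.357.

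The deposited values of several members rest on stretches of sequence that other annotated genes share. For Ldha, 3 other genes match at least 300 bases at 95% identity or more and together cover 56.6% of the principal transcript. The share is 85.6% for Eno1 (3 genes), 68.8% for Pgk1 (4 genes), 65.5% for Pkm (1 gene), 50.2% for Gpi1 (1 gene) and 18.1% for Pfkp (1 gene). Hk1, Hk2, Pfkl and Aldoa have 0 such copies. Exons of another gene overlap 15.3% of the exon bases of Pkm, 11.5% of those of Gpi1 and 5.58% of those of Pfkp, and the strandedness of the counting is not given in the sources used here. For Gapdh, an enzyme between Aldoa and Pgk1, 77 other genes cover 88.0% of the transcript, and it was listed at 1.01 to 2.87 log2 CPM. The part of shared sequence in the level of any of these genes was not tested.

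**Figure D2:**
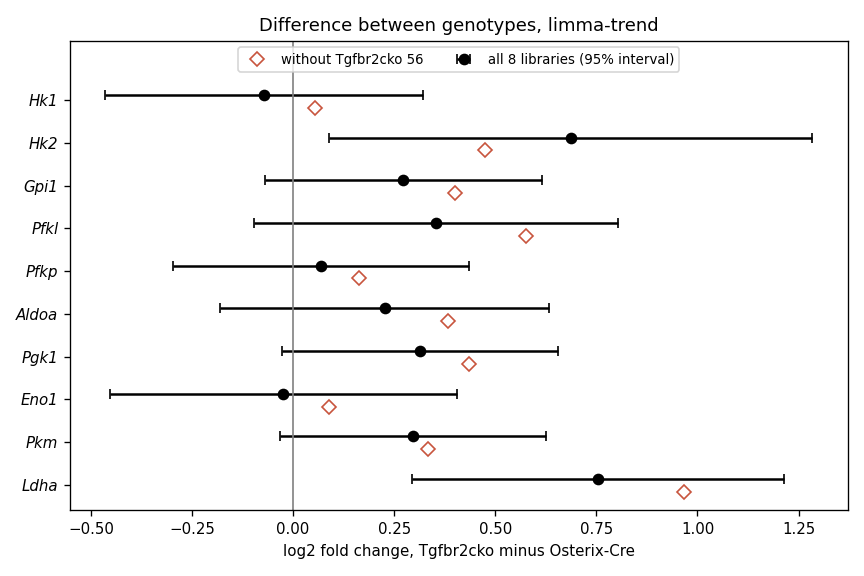
Log2 fold change of each enzyme, Tgfbr2cko minus Osterix-Cre, from limma-trend on all 8 libraries (black, with 95% interval) and without Tgfbr2cko 56 (open diamonds). Only the intervals of Hk2 and Ldha exclude 0 with all libraries, and without Tgfbr2cko 56 every point except that of Hk2 moves to the right.

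The count of members depended on the libraries. It was 1, Ldha, without Osterix-Cre 51 or without Osterix-Cre 52, where 910 and 918 of the 12148 genes passed. Without Tgfbr2cko 56, all 10 members had a higher mean in the mutants, as did 7744 of the 12148 genes. The median log2 fold change of the members was 0.39 (0.07 over all genes). Of the 10, 6 had an unadjusted p under 0.05: Gpi1, Pfkl, Aldoa, Pgk1, Pkm and Ldha. Over all genes 9.58% passed in that fit, and 5.43% passed with a higher mean in the mutants. The 6 log2 fold changes were 0.40 for Gpi1, 0.58 for Pfkl, 0.38 for Aldoa, 0.44 for Pgk1, 0.33 for Pkm and 0.97 for Ldha. Ldha also reached an adjusted p of 0.00614, where 1.22% of all genes were under 0.05, and Pfkl came next among the members at 0.0997. Hk2 moved the other way and lost its call at a log2 fold change of 0.47.

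In another fit the 8 libraries were kept and the mean log2 level of 3 enamel genes (Amelx, Ambn, Enam) entered the model as the enamel covariate. The same 6 members passed there at an unadjusted p under 0.05, where 9.62% of all genes passed, and Ldha had an adjusted p of 0.0118. The 3 enamel genes were highest in Tgfbr2cko 56, so this fit comes close to leaving that library out. The log2 fold change of Pfkl was 0.58 in both fits, and that of Ldha 0.96 with the covariate and 0.97 without the library. When the CPM were computed on totals without Amelx and Ambn, an alternative chosen after the data were seen, 6 members passed again where 11% of all genes did, with Hk2 in place of Aldoa, and Ldha had an adjusted p of 0.0409. The median of all genes moved to 0.07 in that fit and the median of the members to 0.36. Other weightings and scalings of the 8 libraries called 6 members with library weights, 5 after quantile normalization, 5 after median centring and 6 after upper-quartile centring. The shares of all genes were 11%, 10%, 10.1% and 9.95% in these fits, Hk2, Gpi1, Pgk1 and Ldha were called in each, and Aldoa in none of them. Over the 8 libraries the mean log2 CPM of the 10 members was 7.47, 7.71, 7.63 and 7.47 in the controls, against 8.03, 7.97, 7.87 and 7.56 in the mutants, so Tgfbr2cko 56 lay inside the control range and the other mutants above it. Together the members took 0.374% to 0.443% of the reads in the controls, against 0.563%, 0.551%, 0.491% and 0.370% in the mutants.

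Markers of other cells also varied between these libraries. The 7 enamel epithelium genes, all in the table, took 0.397% to 2.33% of reads in the controls and 0.412% to 19.3% in the mutants, and the 5 epithelium genes led by Krt14 took 0.0232% to 0.0371% and 0.0240% to 0.302%. In both lists the maximum was Tgfbr2cko 56, followed among the mutants by 55. Amelx, Ambn and Enam had higher means in the mutants and the other 4 enamel genes lower ones, with a median of -0.38. Of these, Klk4, an enamel protease, lay below every control in all mutants (-2.71, adjusted p = 0.000136), while Amtn (-0.89), Odam (-0.76) and Mmp20 (-0.38) did not pass. Without Tgfbr2cko 56 Amtn was at -1.58 and Odam at -1.78, and neither passed (limma p of 0.153 and 0.123). With the enamel covariate Amtn (-2.19, limma p of 0.00529), Odam (-2.33, 0.00263) and Mmp20 (-0.71, 0.0331) passed. The 5 odontoblast genes took 0.684% to 1.89% and 0.510% to 1.14%, and the 5 dental mesenchyme genes took 0.389% to 0.513% and 0.402% to 0.518%. Muscle tissue, which is rich in glycolytic enzymes, was represented by 1 of its 6 markers in the table, at no more than 0.000520% of reads. Erythroid genes (5 of 6 in the table) took 0.0655% to 0.150% and 0.0565% to 0.254%, macrophage and osteoclast genes 0.0574% to 0.0664% and 0.0383% to 0.0756%, endothelial genes 0.0160% to 0.0237% and 0.0152% to 0.0219%, and Schwann cell genes (2 of 4) 0.00173% to 0.00244% and 0.00235% to 0.00244%. Apart from Klk4, 7 single markers had an unadjusted p under 0.05 in limma, with overlapping genotypes and adjusted p of 0.230 or more. Those higher in the mutants were Cldn1 (2.05) and Cdh1 (1.15) of epithelium, Ibsp (1.24) of the odontoblast list and Mbp (0.57) of Schwann cells. Those lower were Nes of the odontoblast list (-0.81) and the macrophage genes Cd68 (-0.70) and Adgre1 (-0.50). Without Tgfbr2cko 56, Cldn1 (0.96), Cdh1 (0.55), Cd68 (-0.37) and Adgre1 (-0.33) did not pass, with limma p from 0.0654 to 0.135, while Ibsp (0.77), Nes (-0.68), Mbp (0.58) and Klk4 (-2.89) did. In that fit Pdgfra of the dental mesenchyme list (0.48) and Ctsk of the macrophage and osteoclast list (0.56) passed with higher values in the mutants. The erythroid genes Hba-a1 (-0.55), Hba-a2 (-0.98) and Alas2 (-0.51), the muscle gene Mylpf (-0.92) and Mmp20 (-0.68) passed with lower values, and the mean was lower in the mutants for each of the 5 erythroid genes in the table. Amelx, Ambn and Enam had log2 fold changes of 1.39, 1.45 and 1.63 over all libraries and of 0.20, 0.32 and 0.45 without Tgfbr2cko 56, and passed in neither fit. The part of these cells in the members' values was not tested.

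**Figure D3:**
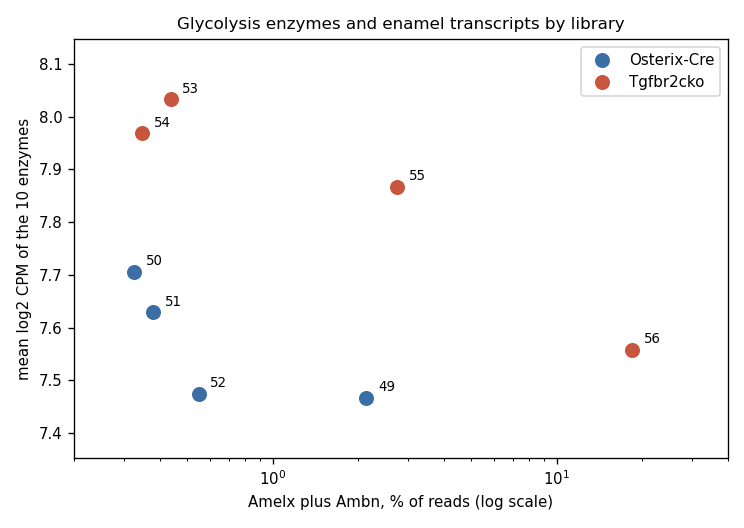
Share of reads on Amelx plus Ambn (horizontal, percent, log scale) against the mean log2 CPM of the 10 glycolysis enzymes (vertical) in each library, labelled by number. Tgfbr2cko 56 lies far right at 18.5% and at the level of the controls, while Osterix-Cre 49 and Tgfbr2cko 55, both above 2%, lie on different levels.

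Ratios between isozymes within a library do not depend on library scaling, and 4 pairs were compared. Ldha minus Ldhb, the pair of lactate dehydrogenase subunits of which Ldhb favours the return of lactate to pyruvate, was -0.11, -0.62, -0.28 and -0.05 on the log2 scale in the controls, against 0.46, 0.76, 0.84 and 0.84 in the mutants. The genotypes did not overlap, and Tgfbr2cko 56 had the highest value of all. Reads of Ldha were 0.649 to 0.967 times those of Ldhb in the controls and 1.38 to 1.79 times in the mutants. The difference was 0.99 (exact permutation p = 0.0286, or 0.114 adjusted by Benjamini-Hochberg over the 4 pairs), and it ran from 0.87 to 1.08 when each library was left out in turn. Ldhb alone was at 9.43, 10.01, 9.58 and 9.34 log2 CPM in the controls and at 9.90, 9.67, 9.25 and 8.60 in the mutants, which overlapped (log2 fold change -0.24, SE 0.26, limma p = 0.377, exact permutation p = 0.514). Without Tgfbr2cko 56 the log2 fold change of Ldhb was 0.013, so its sign turned with that library. Scaled by principal transcript length, the Ldha to Ldhb ratio was 0.479 to 0.714 in the controls and 1.02 to 1.32 in the mutants. By the length of all exons it was 0.308 to 0.458 and 0.654 to 0.851, so Ldhb was the more abundant subunit in the controls by either length, and in the mutants the order depended on the length used. One other gene covers 76.8% of the principal transcript of Ldhb at 95% identity or more, beside the 56.6% for Ldha, and what this does to the order of the levels was not tested.

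The other 3 pairs overlapped, and leaving out Tgfbr2cko 56 took their differences from 0.76 to 0.42 for Hk2 minus Hk1, from -0.29 to -0.41 for Pfkp minus Pfkl and from 0.38 to 0.15 for Aldoa minus Aldoc. Hk2 minus Hk1 was -2.80 ± 0.64 (SD, n = 4) in the controls and -2.04 ± 0.70 in the mutants, with an exact permutation p of 0.20. Pfkp minus Pfkl was -2.40 ± 0.23 and -2.69 ± 0.27 (exact permutation p = 0.20). Aldoa minus Aldoc was 5.33 ± 0.35 and 5.70 ± 0.51 (exact permutation p = 0.343). One further pair, Pfkl minus Pfkm, was chosen after its values were seen and is given without a test. On log2 CPM not scaled to length, the liver-type minus the muscle-type subunit was 0.43, 0.67, 0.50 and -0.04 in the controls. In the mutants it was 1.34, 1.18, 1.14 and 1.03, and the genotypes did not overlap. By the length of all exons the Pfkl to Pfkm ratio was 0.486 to 0.798 in the controls and 1.02 to 1.27 in the mutants. By principal transcript length it was 0.749 to 1.23 and 1.58 to 1.95, so which subunit was more abundant in the controls depended on the scale. Exons of Senp1 and another gene overlap 10.8% of the exon bases of Pfkm.

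**Figure D4:**
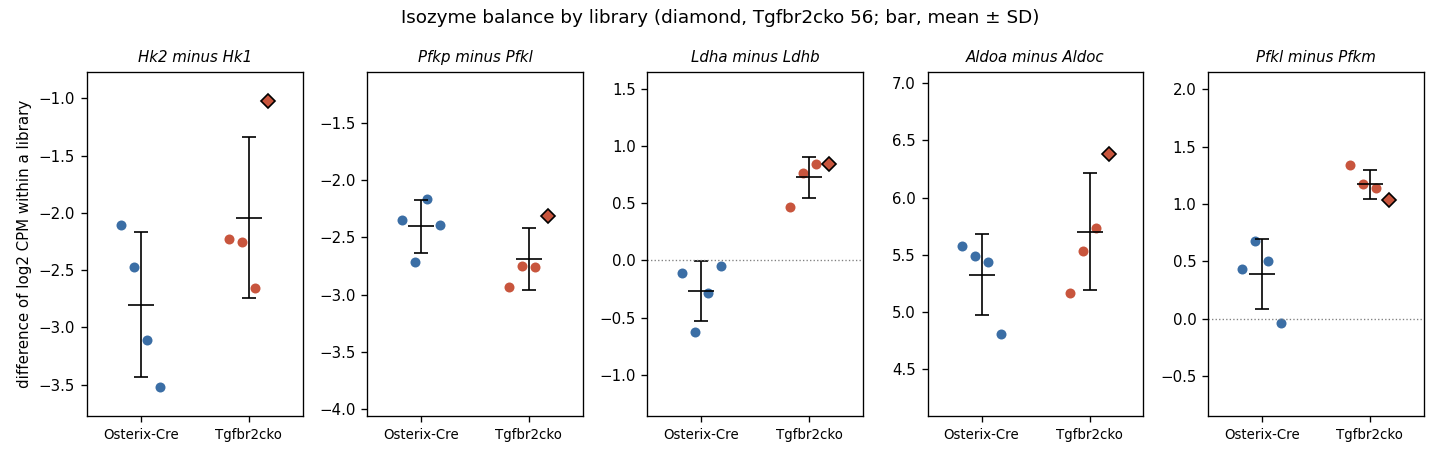
Difference of log2 CPM between isozymes within each library (vertical axis, windows of equal height), for Osterix-Cre (blue) and Tgfbr2cko (red), with Tgfbr2cko 56 as a diamond and bars for mean and SD. Ldha minus Ldhb lies below 0 in all controls and above 0 in all mutants, and Pfkl minus Pfkm, chosen after its values were seen, also separates the genotypes.

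Genes around the members were taken from lists of 85 genes, of which 71 were in the table. At an unadjusted p under 0.05, limma called 12 of them, 7 with higher and 5 with lower values in the mutants, and it gave 0 at an adjusted p under 0.05. Of all genes, 8.38% passed and 3.3% passed with higher values in the mutants. Among 11 other glycolysis enzymes and isozymes, 4 passed. Tpi1, which interconverts the triose phosphates, was at 8.43, 8.67, 8.45 and 8.32 log2 CPM in the controls and at 9.18, 9.11, 8.85 and 8.45 in the mutants (log2 fold change 0.43, limma p = 0.0321, exact permutation p = 0.0857). Like Gpi1 and Pgk1, it was high in Tgfbr2cko 53 to 55 and inside the control range in 56, and leaving out any of the libraries 49 and 51 to 55 took its p to between 0.0535 and 0.0966. Pgam2, a phosphoglycerate mutase best known from muscle, was scarce and higher in the mutants (0.73, limma p = 0.0203, and 0.0717 without Osterix-Cre 51, exact permutation p = 0.0286). Both of the remaining genes, Pfkm and Eno2, were lower in the mutants. Pfkm had a log2 fold change of -0.43 (limma p = 0.0364, exact permutation p = 0.0571), which without Osterix-Cre 50, 51 or 52 or Tgfbr2cko 56 gave limma p from 0.0579 to 0.108. Without Tgfbr2cko 56 it was -0.25, and the call was also lost with library weights (-0.30, limma p of 0.0558), with the enamel covariate (-0.26, 0.0969) and without the intensity trend (0.0588). Eno2, the neuronal enolase, had one of -0.46 (limma p = 0.0454, exact permutation p = 0.0286), and leaving out Osterix-Cre 50, 51 or 52 or Tgfbr2cko 53 or 55 gave limma p from 0.0603 to 0.138. Its call was also lost in 6 fits of all libraries, with limma p from 0.0512 after median centring to 0.0893 on totals without Amelx and Ambn.

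Transporters bring glucose in and carry lactate out, and 3 of 10 passed, all higher in the mutants. Slc16a3, the exporter MCT4 of glycolytic cells, was at 2.53, 2.69, 3.37 and 3.35 log2 CPM in the controls and at 4.67, 4.75, 4.65 and 3.34 in the mutants. The mutants 53 to 55 stood apart from the controls and 56 did not, and the log2 fold change of 1.37 was the largest among the members and the listed genes (SE 0.32, limma p = 0.000980, adjusted p = 0.0731, exact permutation p = 0.0857). It had an unadjusted p under 0.05 in all 18 alternatives. Slc2a1, the glucose transporter GLUT1, was at 3.91, 4.63, 4.41 and 3.68 in the controls and at 4.62, 4.62, 4.97 and 5.17 in the mutants (0.68, limma p = 0.0107, adjusted p = 0.275, exact permutation p = 0.0857). Unlike the members other than Hk2, it was highest in Tgfbr2cko 56, and it also passed in all 18 alternatives. Slc2a12, another glucose transporter, had a log2 fold change of 0.54 (limma p = 0.0434, exact permutation p = 0.171), and without any of the libraries 49 or 51 to 55 its p lay between 0.0642 and 0.144. It was 0.0646 without the intensity trend and 0.0510 with voom weights. Slc16a1, the transporter MCT1 that also carries lactate, had a log2 fold change of 0.30 over all 8 libraries (limma p = 0.0826, exact permutation p = 0.114). Without Tgfbr2cko 56 it passed at 0.39 with a limma p of 0.0238, and it also passed with the enamel covariate, with library weights and on totals without Amelx and Ambn. Slc16a7, the transporter MCT2 of the same family, had a difference of the opposite sign, at 2.93, 2.36, 2.78 and 2.59 log2 CPM in the controls against 1.63, 1.98, 1.44 and 2.98 in the mutants (-0.66, limma p = 0.0702, exact permutation p = 0.171). The mutants 53 to 55 lay below every control and 56 above. Without Tgfbr2cko 56 Slc16a7 passed at -0.98 with a limma p of 0.00361, and it also passed with the enamel covariate (0.0143) and with library weights (0.00604).

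Of 10 flux regulators, 2 passed and both were lower in the mutants. They act in opposite directions on pyruvate dehydrogenase, which turns pyruvate into acetyl-CoA inside the mitochondria. Pdp1, a phosphatase that activates the complex, was at 4.65, 4.78, 5.36 and 5.70 log2 CPM in the controls and at 3.74, 4.69, 4.13 and 3.91 in the mutants (log2 fold change -1.003, SE 0.26, limma p = 0.00214, adjusted p = 0.118, exact permutation p = 0.0571). Pdk2, a kinase that inhibits it, was at 7.14, 7.39, 7.22 and 7.69 in the controls and at 6.94, 7.12, 6.90 and 6.37 in the mutants, below every control (-0.53, limma p = 0.0121, adjusted p = 0.290, exact permutation p = 0.0286). Pdk1, the kinase known as a hypoxia target, had a log2 fold change of 0.40 over all 8 libraries (limma p = 0.0699, exact permutation p = 0.143). Without Tgfbr2cko 56 it passed at 0.56 with a limma p of 0.00824, and it also passed with the enamel covariate, with library weights and on totals without Amelx and Ambn.

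None of the genes for pyruvate entry into mitochondria (8 in the table), gluconeogenesis (2), the pentose phosphate pathway (8) or glycogen (9) passed at an unadjusted p under 0.05 in limma on the deposited values of all 8 libraries. Other fits of all 8 libraries called Rpia (limma p of 0.0307 with library weights and 0.0462 with the enamel covariate), Gys1 (0.0212 with the enamel covariate and 0.0136 on totals without Amelx and Ambn), Pgm1 (0.0421 with the enamel covariate) and Ugp2 (0.0372 on those totals). Without Tgfbr2cko 56, Rpia of the pentose phosphate list (0.69, limma p of 0.0233) and Gys1, glycogen synthase (0.34, limma p of 0.0479), passed. With all libraries the medians were 0.09, 0.01, -0.02 and 0.04 on the log2 scale. By mean log2 CPM, not scaled to length, the highest gene of each list was Mpc2, a pyruvate carrier subunit with a log2 fold change of -0.09, Pck2, the mitochondrial PEP carboxykinase (-0.07), Tkt, transketolase (-0.07), and Pygb, glycogen phosphorylase (-0.09), with limma p from 0.523 to 0.757. In the hypoxia response outside glycolysis, 3 of 13 genes passed and the median was 0.17. Without Tgfbr2cko 56, 6 passed (5 higher and 1 lower) and the median was 0.24, and the added genes were Adm, which encodes adrenomedullin (0.92, limma p of 0.00251), Bnip3 (0.47, 0.0139) and Egln1, an oxygen-sensing prolyl hydroxylase (0.42, 0.0329). Ankrd37 was higher in the mutants by 1.02 (limma p = 0.0136, and 0.0554 without Tgfbr2cko 54, exact permutation p = 0.0857). P4ha1, a collagen prolyl hydroxylase, was higher by 0.58 (limma p = 0.0142, and 0.0542 without Osterix-Cre 50, exact permutation p = 0.0857). Epas1, which encodes HIF-2alpha, was at 6.95, 6.99, 6.72 and 6.75 log2 CPM in the controls and at 6.47, 5.47, 6.28 and 5.25 in the mutants, below every control (-0.99, SE 0.24, limma p = 0.00129, adjusted p = 0.0854, exact permutation p = 0.0286). Without Tgfbr2cko 56, Epas1 (-0.78), Pdp1 (-0.93) and Pdk2 (-0.38) still passed. Hif1a, which encodes HIF-1alpha, had a log2 fold change of 0.09 (limma p = 0.556, exact permutation p = 0.60). Without Tgfbr2cko 56 the passing genes of all lists numbered 19, of which 14 were higher in the mutants, beside 9.58% and 5.43% of all genes, and 2 reached an adjusted p under 0.05: Slc16a3 (0.00331) and Slc2a12 (0.0324).

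**Figure D5:**
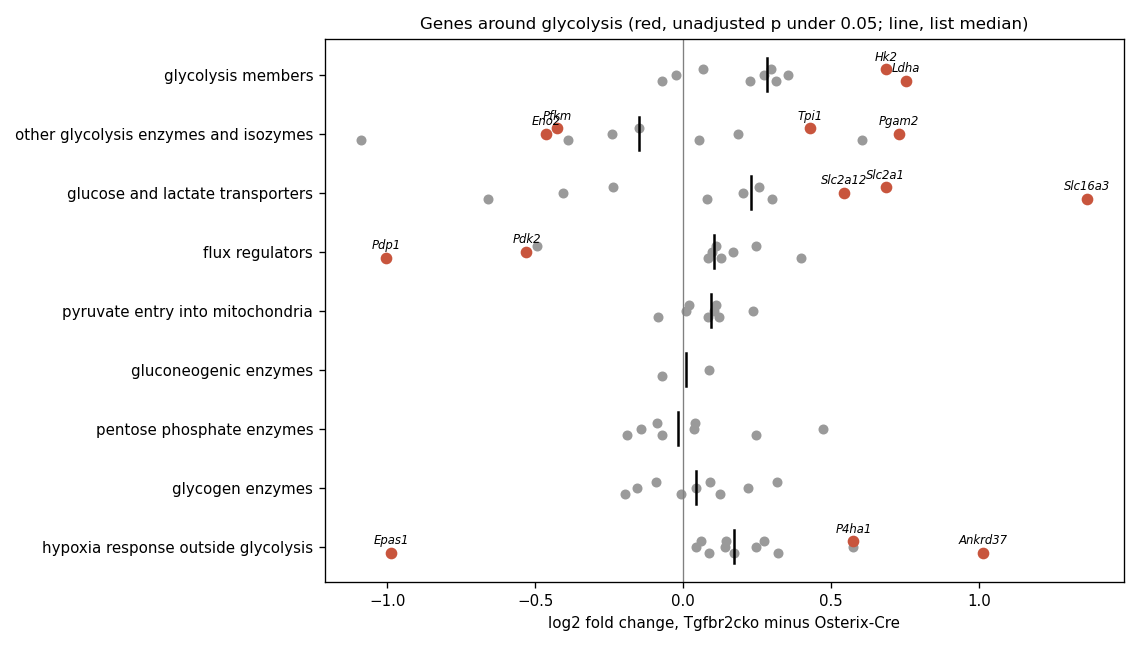
Log2 fold change, Tgfbr2cko minus Osterix-Cre, of each gene of the glycolysis members and the pathway lists (horizontal axis; 1 row per list, with a line at the list's median). The 14 genes with an unadjusted limma p under 0.05 are red and named, with Slc16a3 at 1.37 as the highest and Pdp1 at -1.003 and Epas1 at -0.99 as the lowest of them.

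Among themselves, the members did not move as one. Across the 8 libraries the 10 pairs of Gpi1, Pfkl, Aldoa, Pgk1 and Ldha had Pearson r from 0.873 to 0.957, while the 9 pairs with Hk2 ranged from -0.50 to 0.464. The other 26 pairs ranged from 0.160 (Ldha with Hk1) to 0.872 (Ldha with Pkm), so the 5 genes above were set apart by these same values. These values are a description, since the points share library, genotype and depth. Of 6008 other genes with a mean of at least 5 log2 CPM, Tpi1 was the most like the members' mean (r = 0.980 over 8 libraries and 0.978 without Tgfbr2cko 56), and it is the enzyme next to Aldoa. It was followed by Pcmt1, a repair methyltransferase (0.976), Bri3bp (0.9645), Hacd4 (0.955) and Tpst1, a tyrosylprotein sulfotransferase (0.938). Without Tgfbr2cko 56 Tpi1 stayed at rank 1, while Pcmt1, Bri3bp, Hacd4 and Tpst1 ranked 3, 8, 6 and 7, so their order depends on that library. Of these 5 genes only Tpi1 had an unadjusted p under 0.05 between the genotypes in limma.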

How the data were processed

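RNA was measured by low-input mRNA-Seq in 4 Osterix-Cre and 4 Tgfbr2cko P7 pulp samples. Per the methods and processing notes, the authors amplified the RNA, trimmed reads with fastp 0.21.0 and aligned them with HISAT2 2.1.0. The methods name no molecular identifiers. The authors counted reads per gene with featureCounts (Subread 2.0.1) against GENCODE M14, kept genes that the CLEAR workflow calls quantifiable and applied voom. The deposited values are log2 CPM with 0.5 added to each count. The processing notes give the build as GRCm38.p5, while the methods text prints the human name of that number. By the voom formula all 97184 values returned whole reads within 0.0001, so the depth of each library (8682872 to 13539670 reads) is known.

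Identifiers were matched to symbols, positions and lengths in GENCODE M21 (GRCm38), and 12144 of 12148 matched. The genotypes were compared on the deposited log2 values in R 4.3.3 with limma 3.58.1 (two-sided, intensity trend, 12148 genes, Benjamini-Hochberg adjustment), and single genes and isozyme pairs also by exact permutation (two-sided, 70 arrangements). On simulated data with 200 genes changed 2-fold, the limma test called 116 genes at an adjusted p under 0.05, recovered 53.5% of the changed ones and made 9 false calls. With 0 changed genes it called 0, and 5.20% had an unadjusted p under 0.05. Near-identical copies were found with blastn 2.17.0. Promoter windows are RefSeq's on GRCm38.p6.

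The members, pathway lists and tests were chosen with earlier results of these data known. Named genes are the 10 members, each pathway gene with an unadjusted limma p under 0.05 or otherwise its list's gene with the highest mean log2 CPM, and the 5 genes most like the members' mean. Aldoc was named as part of a tested isozyme pair, and Tgfbr2, Amelx and Ambn as checks of the libraries. Ldhb, Slc16a1, Slc16a7, Pgm1, Ugp2, Nes, Ibsp, Cldn1, Cdh1, Cd68, Adgre1, Mbp, Pdgfra, Ctsk, Hba-a1, Hba-a2, Alas2, Mylpf, Adm, Bnip3, Egln1, Pdk1, Hif1a, Gapdh, Rpia, Gys1, Klk4, Amtn, Odam, Mmp20, Enam, Dspp, Vim and Krt14 were added after their values were seen. The log2 fold changes of Amelx and Ambn were added then as well. Alternatives were the fit without the trend, library weights, voom weights, quantile, median and upper-quartile scaling, a filter at a mean log2 of 3, averaging of samples with one title number, an enamel covariate, totals without Amelx and Ambn, and leaving out each library. TMM scaling was not run, and upper-quartile centring took its place.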

Additional observations from a re-analysis of the deposited data

Results flagged for a closer look

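For the members, the named pathway genes, the 4 isozyme pairs and the mean of the members, each group of 4 libraries was checked for a highest or lowest value far from the rest (Dixon test at the 95% level), which chance gives in about 1 in 20 groups. Of the 62 groups, 4 had such a value, and in all 4 it was the lowest of the Tgfbr2cko libraries. Slc16a3 in Tgfbr2cko 56 was at 3.344 log2 CPM, beside 4.647 for the next library. Pfkm in Tgfbr2cko 56 was at 6.123, beside 6.777. Pck2 in Tgfbr2cko 56 was at 8.069, beside 9.003. Eno2 in Tgfbr2cko 53 was at 3.126, beside 3.589. In Tgfbr2cko 56 Amelx and Ambn took 18.5% of reads, and the part of this in the 3 values was not tested.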

How the results depend on the processing

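With all libraries and the deposited scaling, 2 members had an unadjusted p under 0.05, and the count was 6 with library weights, 5 after quantile normalization, 5 after median centring, 6 after upper-quartile centring, 6 with the enamel covariate and 6 on totals without Amelx and Ambn. Over all genes the count was 1018 and ran from 1169 to 1341 in these 6 fits. Leaving out each library gave 1 to 6 members, with 1 without Osterix-Cre 51 or 52 and 6 without Tgfbr2cko 56. Over all genes it gave 827 to 1334 of 12148, with 910, 918 and 1164 in those fits. The count of members at 1.5-fold and an unadjusted p under 0.05 was 2. It became 1 with library weights, 1 with the enamel covariate and 0 at 2-fold, and it ran from 1 to 2 when a library was left out. Over all genes 5.77% passed both limits with all libraries, and 644 of 12148 did without Tgfbr2cko 56. The shares of all genes in the other fits are not given here, so these small counts cannot be set against them. At an adjusted p under 0.05 the count of members was 0 and became 1 (Ldha) with library weights, the enamel covariate or totals without Amelx and Ambn. It ran from 0 to 1 when a library was left out. Over all genes that count was 115, and it was 258, 119 and 133 in those fits and 65 to 165 when a library was left out. Of the pathway genes 12 passed at an unadjusted p under 0.05, where 8.38% of all genes did. The count was 19 with the enamel covariate, 18 with library weights and 17 on totals without Amelx and Ambn. Over all genes 9.62%, 11% and 11% passed in those fits. The other fits of all libraries gave 10 to 15 pathway genes. Leaving out a library gave from 8 to 19, and from 827 to 1334 of the 12148 genes. The difference of Ldha minus Ldhb was 0.96 when samples of one genotype and title number were averaged, with an exact permutation p of 0.1, the smallest that 3 against 2 values allow.

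Some values near 0 changed sign. Hk1 was at 0.040 with the enamel covariate, at 0.00276 on totals without Amelx and Ambn, and between -0.19 and 0.054 when a library was left out. Eno1 was at 0.11, at 0.0499 and between -0.12 and 0.088 in the same fits. Pck2 was at 0.10 with library weights, 0.14 with the enamel covariate, 0.00357 on those totals and between -0.17 and 0.19 with a library left out. Mpc2 ran from -0.20 to 0.030 with a library left out, and Tkt was at 0.00148 on those totals. Of all comparisons of a single gene with an alternative, 385 kept direction and side of the threshold, 39 lost the call, 28 gained it and 14 changed sign. Where no cause is named above, the cause was not tested. No paired analysis was possible because the genotypes have fewer than 2 numbers in common. Library numbers are not shared and only title number 2 occurs in both, so that a block on it, which was not run, would rest the difference on Osterix-Cre 51 against Tgfbr2cko 54 and 55.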
